A study of Sus scrofa with 16 samples.

Results

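The miRNAs ssc-miR-103 and ssc-miR-107 are 2 of the 1940 rows in a table of small RNA sequencing counts from the ovaries of Large White sows. Both were chosen by measured values of this table, namely opposite differences between sows of low and high fecundity in the luteal and the follicular phase, so those differences are given below as a description, with no test. Ovarian tissue of 16 sows of the strain Canadian Large White pig was sequenced, 1 library per sow, with 4 sows in each of 4 groups. The groups were luteal phase and high fecundity (LH), luteal phase and low fecundity (LL), follicular phase and high fecundity (FH), and follicular phase and low fecundity (FL). Luteal ovaries were collected on day 14 of the estrous cycle and follicular ovaries on day 20, counted from the first day of estrus, and the sample labels name no treatment. Fecundity rested on the number of piglets born per litter in the sow's records, the sows were described as unrelated, and the fecundity class is therefore a trait of the animal that was not assigned. In the records of the study every LL sow had fewer parities than every LH sow and most FL sows had fewer than the FH sows, so fecundity and parity cannot be told apart in the luteal groups.

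miRNAs are short RNAs that guide Argonaute proteins to partly complementary sites in mRNAs and lower the stability and translation of those mRNAs. miR-103 and miR-107 are paralogs whose mature sequences are known to be almost identical, and they share their 5′ seed and therefore most predicted targets. Both are hosted in introns of pantothenate kinase genes, which encode the first enzyme of coenzyme A synthesis. In the RefSeq annotation of the pig assembly Sscrofa11.1, MIR103-1 lies within PANK3, MIR103-2 within PANK2 and MIR107 within PANK1. Known targets in mammalian cells include DICER1, the enzyme that cuts miRNA precursors, and CAV1, a membrane protein that stabilises the insulin receptor. The mature sequences were not used here, and how a read that matched both miRNAs was assigned is not given in the sources used here, so the separate values of each miRNA carry that uncertainty.

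Library totals ran from 8998496 to 37194836 counts, and 445 rows passed the filter on low counts, of which 200 were known pig miRNAs. Both miRNAs were abundant. ssc-miR-103 had 15277 to 209032 counts per library and ranked 27 among the 200 known miRNAs by mean level, and ssc-miR-107 had 3149 to 41933 counts and ranked 62. Levels are given as CPM, the counts per 1000000 counts of a library, after TMM normalization, which rescales each library so that most miRNAs keep the same level. The TMM factors were 1.19 to 1.74 in LL against 0.851 to 1.07 in LH, without overlap, and 0.741 to 1.23 in FL against 0.670 to 0.942 in FH. As a check of the tissue, ssc-miR-202-5p, a miRNA of the gonads, was detected in all 16 libraries at 64.5 to 3843 CPM. The other ovary markers in the table were scarce, with ssc-miR-224 at 1.80 to 29.6 CPM and ssc-miR-383 at 0 to 5.88 CPM, above 0 in 13 libraries.

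In luteal ovaries both miRNAs were higher in the sows of low fecundity. ssc-miR-103 stood at 3621 CPM in LH1, 2746 CPM in LH2, 5351 CPM in LH3 and 3048 CPM in LH4, and at 7063 CPM in LL1, 6133 CPM in LL2, 6366 CPM in LL3 and 5418 CPM in LL4. Every LL sow lay above every LH sow, but LL4 exceeded LH3 by a factor of 1.01, so that the groups nearly touched. ssc-miR-107 stood at 694 CPM in LH1, 316 CPM in LH2, 614 CPM in LH3 and 521 CPM in LH4, and at 1417 CPM in LL1, 1175 CPM in LL2, 1317 CPM in LL3 and 1065 CPM in LL4. For this miRNA the gap was wider, since the lowest LL sow was 1.54 times the highest LH sow. The group means of ssc-miR-103 were 3692 ± 1164 CPM in LH and 6245 ± 678 CPM in LL (SD, n = 4 each), and the fitted log2 fold change of LL over LH was 0.76 (SE 0.260), or 1.69-fold. Those of ssc-miR-107 were 536 ± 163 CPM in LH and 1243 ± 155.1 CPM in LL, with a log2 fold change of 1.21 (SE 0.292), or 2.32-fold. In these libraries of ovarian tissue, fewer cells of a type and less RNA per cell cannot be told apart.

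In follicular ovaries the direction was the opposite, and both miRNAs were lower in the sows of low fecundity. ssc-miR-103 stood at 4471 CPM in FH1, 2170.2 CPM in FH2, 3029 CPM in FH3 and 2275 CPM in FH4, and at 1722 CPM in FL1, 1489 CPM in FL2, 1898 CPM in FL3 and 1990.2 CPM in FL4. ssc-miR-107 stood at 852 CPM in FH1, 411 CPM in FH2, 544 CPM in FH3 and 400.3 CPM in FH4, and at 276 CPM in FL1, 307 CPM in FL2, 363 CPM in FL3 and 384 CPM in FL4. Every FL sow lay below every FH sow for both miRNAs, by narrow margins, as the lowest FH sow was 1.09 times the highest FL sow for ssc-miR-103 and 1.04 times for ssc-miR-107. FH1 was the highest follicular sow for both. The means of ssc-miR-103 were 2986 ± 1061 CPM in FH and 1775 ± 221 CPM in FL, and the log2 fold change of FL over FH was -0.75 (SE 0.260), or 1.68-fold lower. The means of ssc-miR-107 were 552 ± 210.5 CPM in FH and 332 ± 49.8 CPM in FL, with a log2 fold change of -0.73 (SE 0.290), or 1.66-fold lower.

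**Figure D1:**
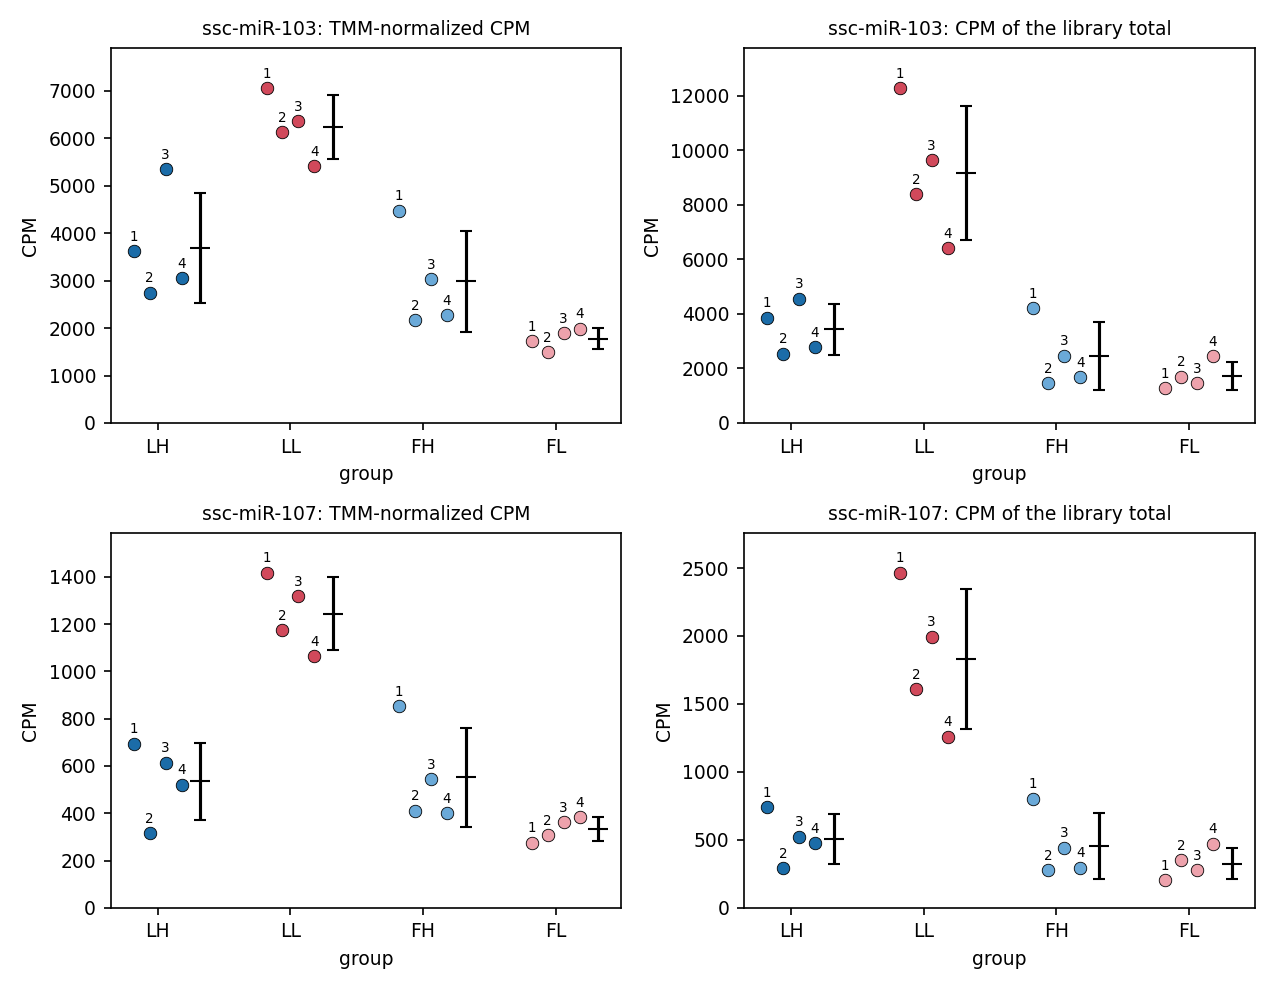
Levels of ssc-miR-103 (top) and ssc-miR-107 (bottom) in CPM in each sow, by group, after TMM normalization (left) and as CPM of the library total (right). Points are sows with their numbers, and bars are the group mean ± SD (n = 4). With TMM normalization the LL sows lie above the LH sows and the FL sows below the FH sows. As CPM of the library total, FH and FL overlap.

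The fecundity difference in follicular ovaries minus that in luteal ovaries was -1.51 (SE 0.367) for ssc-miR-103 and -1.95 (SE 0.411) for ssc-miR-107 on the log2 scale. After TMM normalization, 7.87% of the 445 miRNAs tested had every LL sow above every LH sow. Every FL sow lay below every FH sow for 1.8%. Both held for 0.449%, which are these 2 miRNAs. With other scalings some of these groups overlapped, as given below. The threshold of the study was a P below 0.05 without adjustment together with a change of at least 1 on the log2 scale in either direction. Applied here to the P of the edgeR fit, 15.3% of the 445 passed in LH vs. LL, and the share was 8.31% for FH vs. FL. These are not the calls of the study, which came from its own processing. Nothing is read from these shares for ssc-miR-103 and ssc-miR-107, which were selected on the same values.

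The order of the group means was LL, LH, FH and FL for ssc-miR-103. For ssc-miR-107 it was LL, FH, LH and FL, with FH and LH at nearly equal means. LH and FH sows overlapped for both miRNAs, and the log2 fold change of FH over LH was -0.31 (SE 0.258) for ssc-miR-103 and 0.04 (SE 0.288) for ssc-miR-107. LL and FL stood farthest apart, with a log2 fold change of FL over LL of -1.82 (SE 0.266), or 3.52-fold lower, for ssc-miR-103 and of -1.90 (SE 0.298), or 3.74-fold lower, for ssc-miR-107. After TMM normalization, the spread between the 4 sows of a group also differed between the classes. The coefficient of variation of ssc-miR-103 was 31.5% in LH and 35.5% in FH, against 10.9% in LL and 12.4% in FL, and that of ssc-miR-107 was 30.4% in LH and 38.1% in FH, against 12.5% in LL and 14.998% in FL. As CPM of the library total, the coefficient of variation of ssc-miR-103 hardly differed between LH (3432 ± 942 CPM) and LL (9177 ± 2463 CPM). For ssc-miR-107 it differed less between LH (507 ± 184 CPM) and LL (1831 ± 518 CPM) than after TMM normalization. FH stayed more spread than FL on that scale, at 2452 ± 1246 CPM against 1715 ± 512 CPM for ssc-miR-103.

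Part of the fecundity differences depended on how the libraries were scaled. As CPM of the library total, ssc-miR-103 ran from 2535 to 4550 CPM in LH and from 6399.5 to 12285 CPM in LL, a wider gap than with TMM, while FH (1455 to 4205 CPM) and FL (1275 to 2438 CPM) overlapped. ssc-miR-107 likewise overlapped on that scale, at 276 to 801 CPM in FH and 204 to 470.4 CPM in FL. Scaling by the library total moved the median log2 fold change of all 445 miRNAs from 0.04 to 0.69 in LL over LH and from 0.15 to 0.43 in FL over FH. With it, the log2 fold change of LL over LH was 1.42 for ssc-miR-103 and 1.85 for ssc-miR-107, and that of FL over FH was -0.51 and -0.48. With DESeq2 size factors the FL and FH sows did not overlap for either miRNA, but the luteal groups overlapped for ssc-miR-103, whose lowest LL sow was 0.901 times the highest LH sow. With TMM factors from the known miRNAs alone that value was 0.971. The sign of each fecundity difference was the same under every scaling run. With parity of each sow as a covariate, the luteal values were 0.53 (SE 0.327) for ssc-miR-103 and 0.97 (SE 0.371) for ssc-miR-107. The follicular values were -1.01 for both (SE 0.340 and 0.385). Since parity did not overlap between LH and LL, the luteal values of this fit do not separate fecundity from parity.

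**Figure D2:**
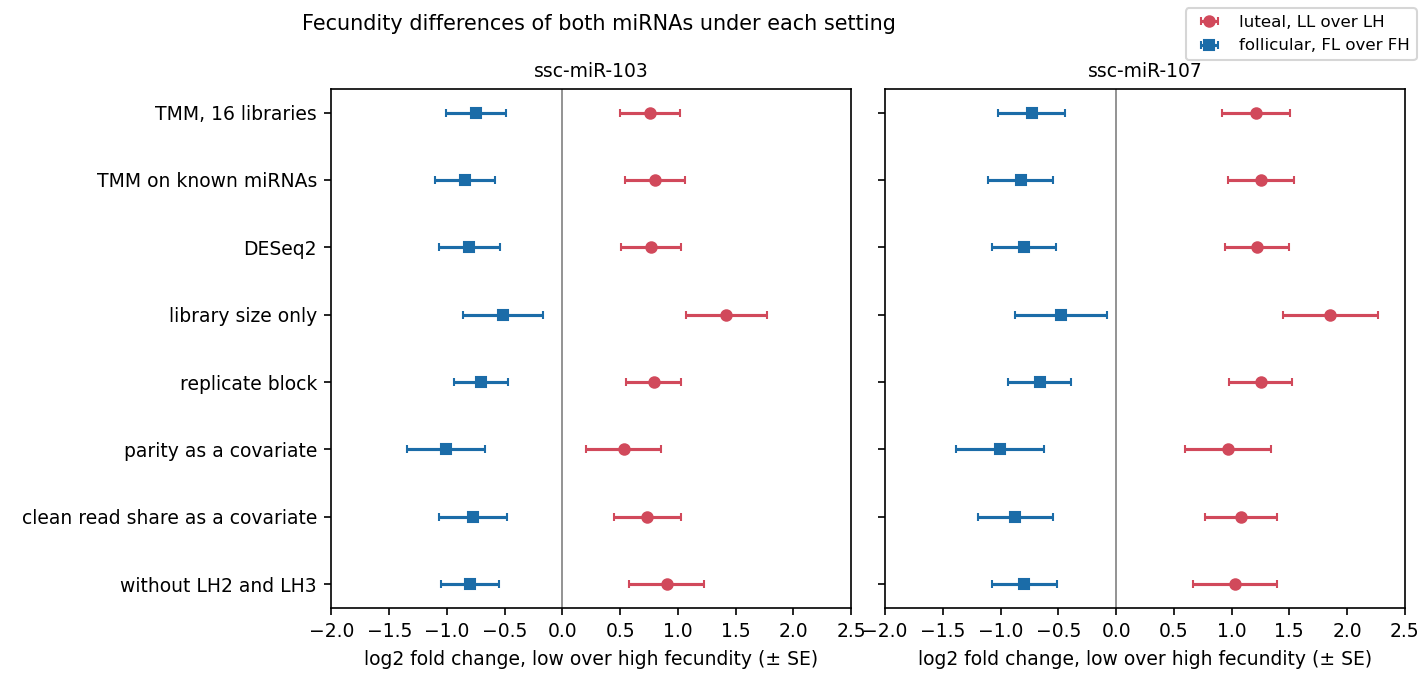
Fitted log2 fold change (± SE) of low over high fecundity for ssc-miR-103 (left) and ssc-miR-107 (right), in luteal ovaries (circles, LL over LH) and follicular ovaries (squares, FL over FH), one row per way of fitting the counts. The luteal values lie right of 0 and the follicular values left of 0 in every row, and the row with the library size only has the largest luteal and the smallest follicular differences.

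Some markers of other tissues differed between LH and LL too. The summed levels of the muscle and epithelium lists did not overlap, while those of the liver, erythrocyte, leukocyte and neural lists did. The share of all miRNAs with every LL sow below every LH sow was not counted. The summed level of the skeletal or cardiac muscle list (6 of 6 miRNAs listed) was 2155 to 3256 CPM in LH and 449.2 to 984 CPM in LL, and that of the epithelium list (3 of 9 listed) was 64.2 to 21535 CPM in LH and 25.3 to 63.4 CPM in LL. After TMM normalization both sums were thus lower in LL, where ssc-miR-103 and ssc-miR-107 were higher, but the epithelium sums of LH and LL nearly touched. Within the muscle list, ssc-miR-499-5p went the other way, at 87.8 ± 33.9 CPM in LH and 146 ± 9.37 CPM in LL. No listed marker was at 0 in all libraries. The ovary list (3 of 4 listed), whose sum was mostly ssc-miR-202-5p, overlapped between LH (1213 to 2724 CPM) and LL (1338 to 3873 CPM). In FH vs. FL the summed levels of all 7 lists overlapped. The part of these markers in the differences of ssc-miR-103 and ssc-miR-107 was not tested.

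The comparison of the phases, averaged over both fecundity classes, is another contrast than those the miRNAs were chosen by, and it was tested. It uses the same values of the same sows, and the choice was made with earlier results of these data known. Its p-values are therefore no independent support. On average over the classes, both miRNAs were lower in the follicular than in the luteal phase. The log2 fold change of follicular over luteal was -1.06 (SE 0.185), or 2.09-fold lower, for ssc-miR-103, with an adjusted p of 0.00222 in edgeR's quasi-likelihood test. For ssc-miR-107 it was -0.93 (SE 0.206), or 1.91-fold lower, with an adjusted p of 0.00785 in the same edgeR test. In a two-sided exact permutation test of each miRNA alone, with phase permuted within the fecundity classes, p was 0.00490 for ssc-miR-103 and 0.0163 for ssc-miR-107. Among all miRNAs tested, 17.5% passed the adjusted threshold of 0.05 in either direction and 8.99% were lower in the follicular phase.

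The phase difference was uneven across the sows. For ssc-miR-103, 6 of 8 follicular sows lay below every luteal sow, the exceptions being FH1 and FH3. For ssc-miR-107 this held for 2 of 8 follicular sows, FL1 and FL2. For both miRNAs all 4 FL sows lay below every LL sow, a separation that was not counted over all miRNAs. The tested value thus averages a large difference among sows of low fecundity with a smaller one, or nearly none, at high fecundity. Between FH and LH the log2 fold change was -0.31 (SE 0.258) for ssc-miR-103 and 0.04 (SE 0.288) for ssc-miR-107. Without the filter on low counts the adjusted p of ssc-miR-107 was 0.278 in edgeR, at a log2 fold change of -0.96, and that call was lost, while over the other alternatives its adjusted p ran from 3.56e-05 (DESeq2) to 0.0274. With the library size only, which moved the median of all miRNAs from -0.17 to -0.55, the phase differences were -1.45 for ssc-miR-103 and -1.33 for ssc-miR-107. The ovary list was lower in follicular sows as well, at 277 to 1306 CPM in FH and 75.2 to 601 CPM in FL, overlapping with the luteal range, and its part in the phase difference was not tested.

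The ratio of the paralogs, which needs no scaling between libraries, was steady in most sows. There were 4.98, 5.22, 4.83 and 5.09 counts of ssc-miR-103 per count of ssc-miR-107 in LL1 to LL4, 5.25, 5.27, 5.57 and 5.68 in FH1 to FH4, and 6.25, 4.85, 5.23 and 5.18 in FL1 to FL4. In luteal sows of high fecundity the ratio was 5.22 in LH1 and 5.85 in LH4 but 8.69 in LH2 and 8.72 in LH3. LH2 and LH3 thus stood above the other 14 libraries, whose ratio was 5.32 ± 0.394 (SD, n = 14). ssc-miR-107 made up 10.3% of the counts of the pair in LH2 (exact Clopper-Pearson 95% interval 10.1 to 10.6%) and 10.3% in LH3 (10.1 to 10.5%), against 13.8 to 17.1% in the other libraries. These intervals cover counting error only, since PCR copies were counted without molecular identifiers.

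**Figure D3:**
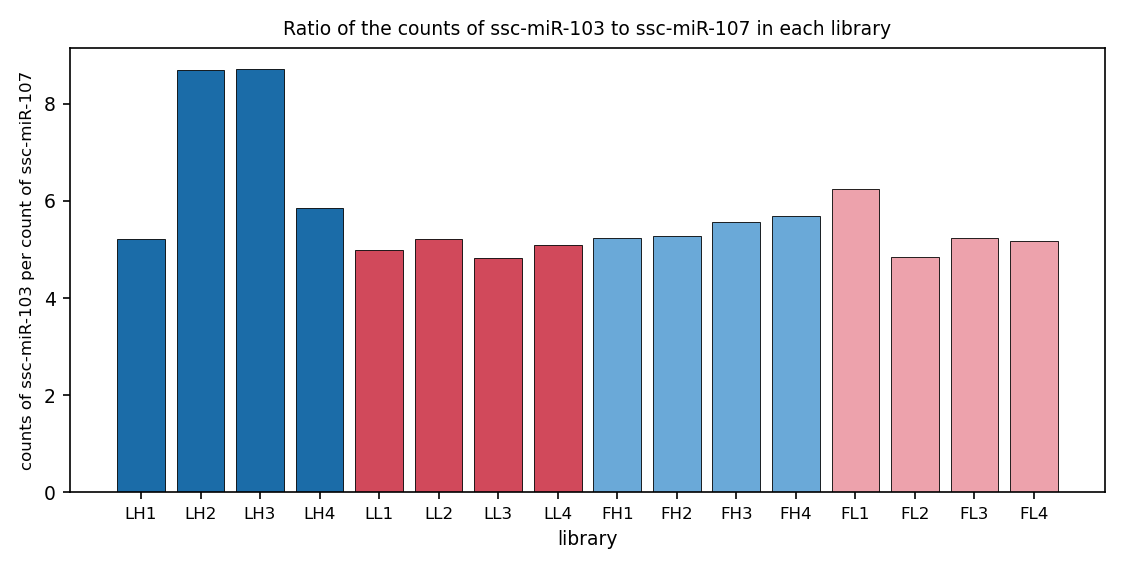
Counts of ssc-miR-103 per count of ssc-miR-107 in each of the 16 libraries, coloured by group. LH2 (8.69) and LH3 (8.72) stand above the other 14 libraries, which lie between 4.83 and 6.25.

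The log2 ratio of ssc-miR-107 to ssc-miR-103 differed by 0.13 between the follicular and the luteal phase (exact two-sided permutation test, p = 0.320). Its fecundity differences were 0.46 for LL over LH and 0.02 for FL over FH, given without a test. The luteal fold changes of the pair were closer without LH2 and LH3. In that setting, chosen after the ratios were seen, the luteal log2 fold changes were 1.03 for ssc-miR-107 and 0.90 for ssc-miR-103, and the ratio differed by -0.034 between the phases (exact permutation p = 0.561). The phase differences without them were -0.92 for ssc-miR-103 and -0.96 for ssc-miR-107, with adjusted p of 0.0216 and 0.0274 in edgeR.

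After the group means were removed, the miRNAs still varied together across the 16 sows. The correlation of their log2 CPM had a Pearson's r of 0.837 (permutation p = 0.00186, adjusted 0.00930 over 5 relations) and a Spearman's rho of 0.888 (permutation p = 2.9e-04, adjusted 0.00145). It was 0.806 without FH1 and LH3, 0.70 among the luteal and 0.954 among the follicular libraries. Both values of a sow come from the same library and scaling factor, and reads that match both miRNAs may be shared. The depth of the libraries was compared in the same way. Pearson's r with the log2 library total was -0.177 (permutation p = 0.608, adjusted 0.761) for ssc-miR-103 and -0.389 (permutation p = 0.199, adjusted 0.332) for ssc-miR-107. With the share of raw reads kept as clean reads, r was -0.0459 (permutation p = 0.791, adjusted 0.791) for ssc-miR-103 and -0.269 (permutation p = 0.114, adjusted 0.284) for ssc-miR-107. The Spearman's rho of these 4 relations lay between -0.347 and -0.0941 and the smallest permutation p among them was 0.216 (adjusted 0.399).

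Other known miRNAs had patterns close to those of the pair. Over the 16 libraries and 199 other known miRNAs, the highest Pearson correlations of log2 CPM with ssc-miR-103 were those of ssc-miR-107 (0.943), ssc-miR-21 (0.894), ssc-miR-148b-5p (0.867), ssc-miR-362 (0.864) and ssc-miR-32 (0.859). With ssc-miR-107 they were those of ssc-miR-103, ssc-miR-362 (0.907), ssc-miR-499-5p (0.885), ssc-miR-212 (0.852) and ssc-miR-7137-5p (0.841). The median correlation over all 199 was -0.006 and 0.060. ssc-miR-362 had 83.6 ± 29.6 CPM in LH, 171 ± 4.75 CPM in LL, 67.9 ± 31.3 CPM in FH and 65.0 ± 16.1 CPM in FL. It was thus highest in LL as ssc-miR-103 and ssc-miR-107 were, but its means in FH and FL were close. ssc-miR-32 had means of 138, 195, 79.6 and 46.2 CPM in LH, LL, FH and FL, with LL highest and FL lowest as for ssc-miR-103. By the means alone, LL was above LH and FL below FH also for ssc-miR-21, ssc-miR-148b-5p, ssc-miR-212 and ssc-miR-499-5p. This did not hold for ssc-miR-7137-5p, whose mean was higher in FL than in FH. ssc-miR-499-5p, a myosin gene miRNA of the muscle list, had 87.8 ± 33.9 CPM in LH and 146 ± 9.37 CPM in LL, opposite in direction to the sum of that list, and 69.7 ± 11.3 CPM in FH and 50.1 ± 14.2 CPM in FL.

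With the group means removed, which leaves the differences between sows of one group, the list changed in part. For ssc-miR-103 the highest correlations were those of ssc-miR-107 (0.837), ssc-miR-21 (0.822), ssc-miR-212 (0.816), ssc-miR-362 (0.785) and ssc-miR-182 (0.739). For ssc-miR-107 they were those of ssc-miR-212 (0.902), ssc-miR-362 (0.838), ssc-miR-103 (0.837), ssc-miR-21 (0.832) and ssc-miR-132 (0.817). miR-132 and miR-212 come from one precursor cluster and are known to be induced by gonadotropins in granulosa cells, and miR-21 is a miRNA of periovulatory granulosa cells that is known to restrain apoptosis. ssc-miR-212 was scarce, at 24.3 ± 14.5 CPM in LH, 44.6 ± 2.42 CPM in LL, 27.4 ± 35.4 CPM in FH and 12.2 ± 10.1 CPM in FL. The SD in FH exceeded its mean. ssc-miR-21 was far more abundant than the pair and varied widely, at 153926 ± 117734 CPM in LH, 181579 ± 26785 CPM in LL, 52174 ± 27976 CPM in FH and 36408 ± 6882 CPM in FL. These correlations share the libraries and their scaling factors and are a description.

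miR-103 and miR-107 belong to a larger group, the miR-15 and miR-107 group, whose members carry the same short motif near the 5′ end and include the cell cycle regulators miR-15, miR-16, miR-195 and miR-497. Of 7 other miRNAs of this group that were looked up, 5 were analysed here. After TMM normalization none of them had both every LL sow above every LH sow and every FL sow below every FH sow. Of all miRNAs tested 0.449% had both, namely ssc-miR-103 and ssc-miR-107. Those were chosen by these values, so nothing is read from the absence of the pattern in the others. Between the phases 1 of the 5 passed the test, ssc-miR-497, which rose in the follicular phase with a log2 fold change of 1.47 (SE 0.316; edgeR adjusted p = 0.00689), opposite to ssc-miR-103 and ssc-miR-107. Over all miRNAs tested 17.5% passed in either direction, so that 1 of 5 is near that background. The level of ssc-miR-497 was 409 ± 106 CPM in LH, 351 ± 171 CPM in LL, 1153 ± 271 CPM in FH and 956 ± 476 CPM in FL. The call was lost without the filter on low counts (log2 fold change 1.42, edgeR adjusted p = 0.0559), and over the other alternatives the adjusted p ran from 2.46e-05 (DESeq2) to 0.0388. ssc-miR-195, which lies in one cluster with miR-497, had a log2 fold change of 0.74 (SE 0.311; edgeR adjusted p = 0.117). It passed with DESeq2 (adjusted p = 0.0459) and when the share of clean reads entered the edgeR fit (0.93, adjusted p = 0.0403), and over the other alternatives its adjusted p reached 0.536. The median log2 fold change between the phases was 0.18 over the 5 miRNAs and -0.17 over all miRNAs tested.

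In LL over LH, 4 of the 5 had fitted values below 0, where ssc-miR-103 and ssc-miR-107 lay above 0, but 1 of 5 did with the library size only. By the threshold of the study, 1 of 5 passed for LH vs. LL, while 0 of 5 passed for FH vs. FL, beside 15.3% and 8.31% of all miRNAs tested, and neither count stands apart from that background. The one was ssc-miR-195, with 1016 ± 385 CPM in LH and 416 ± 217 CPM in LL and a log2 fold change of LL over LH of -1.29 (SE 0.445), opposite to ssc-miR-103 and ssc-miR-107. Its adjusted p was 0.172 in edgeR and 0.0346 in DESeq2, and over the other alternatives it ran up to 0.522. It missed the threshold of the study when the library size alone was used (-0.71), when the share of clean reads entered the fit (-0.91), without LH2 (-1.03) and without both LH2 and LH3 (-0.97). The median over the 5 miRNAs was -0.33 for LL over LH and -0.43 for FL over FH, against 0.04 and 0.15 over all miRNAs tested. ssc-miR-16, at 524 ± 161 CPM in LH, 418 ± 89.7 CPM in LL, 611 ± 145 CPM in FH and 446 ± 163 CPM in FL, overlapped between the classes in both phases. ssc-miR-15a and ssc-miR-15b were the scarcest of the group, with group means of 29.0 to 40.1 CPM and 43.6 to 60.9 CPM.

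**Figure D4:**
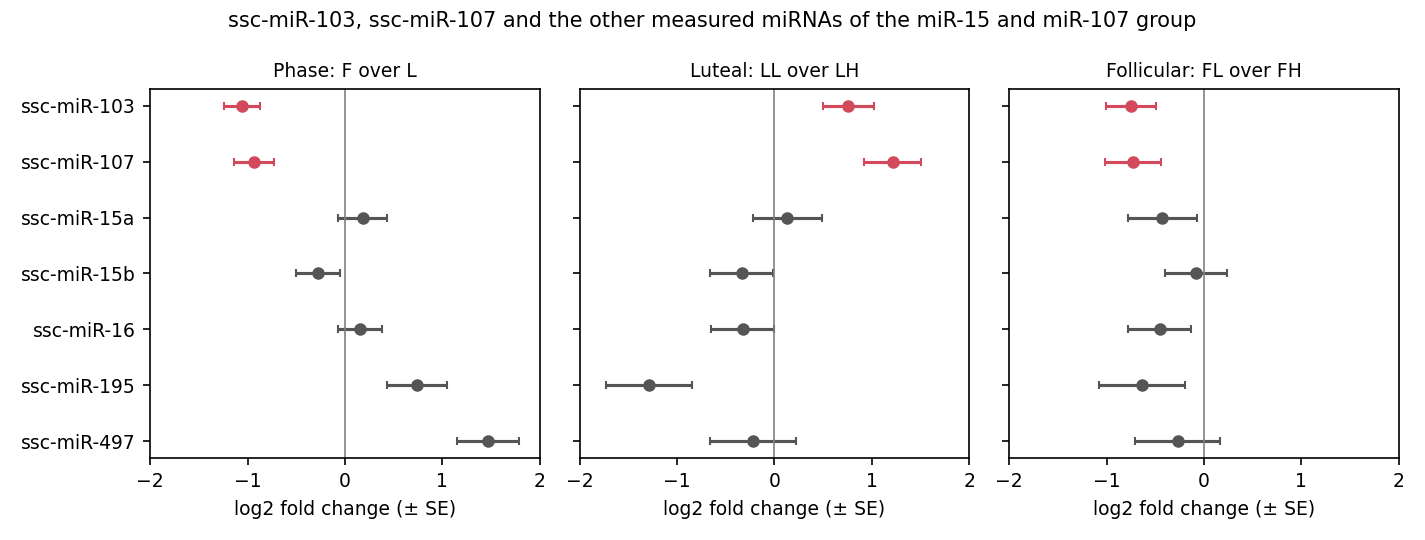
Fitted log2 fold changes (± SE) of ssc-miR-103 and ssc-miR-107 (red) and of 5 other miRNAs of the miR-15 and miR-107 group (grey) between the phases (left), in LL over LH (middle) and in FL over FH (right). ssc-miR-103 and ssc-miR-107 lie left of 0 between the phases, where ssc-miR-497 lies at 1.47, and right of 0 in the luteal comparison, where ssc-miR-195 lies at -1.29.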

How the data were processed

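Small RNA libraries of ovaries from 16 sows were analysed, 4 per group. The authors trimmed the reads, mapped them to Sscrofa10.2 with Bowtie2 2.1.0 per the labels and deposited raw counts of reads per miRNA, without normalization, for 216 known and 1724 predicted miRNAs. Each column was matched to a sow by its title. The quasi-likelihood test of edgeR 4.0.16 in R 4.3.3 was run on TMM-normalized counts of miRNAs that passed its filter (minimum count 10, minimum total 15), with 4 groups in 1 fit of all 16 libraries and Benjamini-Hochberg adjustment over the 445 miRNAs tested, and with DESeq2 1.42.0 as an alternative. Exact permutation tests of each miRNA and correlations used log2(CPM + 1), and 100000 resamples within groups for correlations. The exact permutation test of the ratio used the log2 of the ratio of raw counts in each library. The edgeR fit and the permutation test were first run on simulated data with known differences. Depth was 8998496 to 37194836 counts per library, and intervals cover counting error only. Each sow gave 1 library, so p-values measure the spread between these sows. The members and lists were chosen with earlier results of these data known. The text names both miRNAs, the miRNAs of the miR-15 and miR-107 group, and the 5 known miRNAs with the highest correlation with each, before and after the group means were removed. Parity and the share of clean reads, from the records of the study, served as covariates in alternatives. Other alternatives changed the scaling, the filter, the pseudocount and the libraries. mRNA and lncRNA measurements were not used here.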

Additional observations from a re-analysis of the deposited data

Results flagged for a closer look

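The fecundity difference in follicular ovaries had the opposite sign to that in luteal ovaries for both miRNAs, and after TMM normalization neither the luteal nor the follicular groups overlapped. The separation did not hold under every scaling. The luteal groups overlapped for ssc-miR-103 with DESeq2 size factors and with TMM factors from the known miRNAs, and the follicular groups overlapped for both miRNAs with the library size only. The difference of the log2 fold changes, follicular minus luteal, was -1.51 for ssc-miR-103 and -1.95 for ssc-miR-107. It was not tested, because both miRNAs were chosen by these values. Dixon's criterion named no single sow in the 8 groups of 4 sows for the levels of both miRNAs. For the ratio of the pair in LH it says nothing, since LH2 and LH3 were high together.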

How the results depend on the processing

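ssc-miR-103 and ssc-miR-107 kept the sign of their phase, luteal and follicular differences in all alternatives run for each, which covered the scaling, the filter, covariates, a replicate block and each library left out, and for the phase difference also the pseudocount. With the library size only, the luteal log2 fold change was 1.42 for ssc-miR-103 and 1.85 for ssc-miR-107, and the difference of the fecundity differences was -1.93 and -2.33. Without the filter on low counts the phase difference of ssc-miR-107 was -0.96 (edgeR adjusted p = 0.278). The cause was not tested. The number of miRNAs past the threshold between the phases was 78, of which 48.7% were higher in the follicular phase, and it was 141 with DESeq2, 45 without the filter, 45 without LH2 and LH3, and 48 to 83 with each library left out in turn, with 50 without FH2, 50 without FH3 and 48 without FL3. The share of higher calls was 24.4% with the library size only and 37.1% without LL1. With each library left out, the phase difference ran from -1.16 to -0.95 for ssc-miR-103 and from -1.05 to -0.86 for ssc-miR-107, the luteal difference from 0.63 to 0.93 and from 1.01 to 1.35, the follicular difference from -0.89 to -0.57 and from -0.88 to -0.53, and their difference from -1.70 to -1.28 and from -2.10 to -1.71. The phase difference of the log2 ratio ran from 0.08 to 0.20 and was -0.034 without LH2 and LH3. Among the group miRNAs, the library size only gave ssc-miR-15a a phase difference of -0.22 and ssc-miR-16 one of -0.27, gave ssc-miR-15b, ssc-miR-16 and ssc-miR-497 luteal differences of 0.28, 0.30 and 0.41, and gave ssc-miR-15b and ssc-miR-497 follicular differences of 0.22 and 0.043, all opposite in sign to the TMM values. The luteal difference of ssc-miR-15a was -0.12 with parity as a covariate and ran from -0.046 to 0.29 with each library left out, below 0 without LH1, LH2 or LL3, that of ssc-miR-16 was 0.024 with the share of clean reads in the fit, and that of ssc-miR-497 ran from -0.46 to 0.023, above 0 without LL2. The labels name no pairing by the numbers of the sows, the sows were described as unrelated, and 24 pairs of same-numbered libraries correlated at -0.190 to 0.373. Whether same-numbered sows were handled together is not given. With the replicate block 56 miRNAs passed between the phases, and no call of the pair changed.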
